A study of Mus musculus with 16 samples.

Results

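The 10 genes described here encode the subunits of the transcription factor NF-kB (Rel, Rela, Relb, Nfkb1, Nfkb2) and IkB-type proteins (Nfkbia, Nfkbie, Nfkbiz). The other 2, Tnfaip3 and Birc3, encode ubiquitin-pathway regulators. The list of 10 was drawn up with earlier results of these data known, so their counts beside those of all genes are a description. Every array probe whose gene name in the scanner files equals a member was used. These were 14 probes of 55681 distinct probes, and 10 of 34650 gene names. Bone marrow RNA was measured in 16 mice, 8 labelled KO chimera and 8 labelled control, with 1 Agilent 1-colour array per mouse. The KO-labelled mice were C57BL/6J animals lethally irradiated with 950 Rad that received whole marrow of the strain Adrb1tm1BkkAdrb2tm1Bkk/J, which lacks 2 beta adrenergic receptors. The injection was retro-orbital, at a ratio of 1:4 of that strain to C57BL/6J, and tissue was taken after 2 to 3 months. The control mice are labelled as lethally irradiated (950 Rad) C57BL/6J, and their labels name no donor strain. The same protocol text stands on all 16 samples, so receptor loss, donor strain and grafting cannot be told apart between these groups. Age is not given in the labels, and the share of donor cells in each marrow was not measured.

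NF-kB proteins are held in the cytoplasm by IkB proteins. Signals from cytokine and Toll-like receptors activate the IkB kinases, IkB is degraded, and dimers of the subunits enter the nucleus. Among the genes they switch on are their own inhibitors, Nfkbia, Nfkbie and Tnfaip3, which close a feedback loop. In bone marrow the pathway is known for its part in the response of myeloid cells to infection and in the survival of lymphocytes.

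Promoter sequences are shown because NF-kB binds DNA at kappaB sites, and several members are textbook targets of the factor itself. The RefSeq promoter table (build GRCm38.p6) held windows of 300 bases, 250 before to 50 after a transcription start, for 7 of the 10 members, in 10 windows. Nfkb1, Relb and Nfkbiz were not among them. The first Tnfaip3 window is chr10:19015361-19015660 (minus strand), Nfkbia is chr12:55492598-55492897 (minus strand) and Nfkbie is chr17:45555450-45555749 (plus strand). Rel is chr11:23770920-23771219 (minus strand) and the first Nfkb2 window is chr19:46304487-46304786 (plus strand). The first 3 belong to the genes whose brightest probe rose, the last 2 to subunit genes that did not pass the test. Each reads 5′ to 3′ along the gene, and capitals mark matches to the kappaB consensus on either strand.
Tnfaip3: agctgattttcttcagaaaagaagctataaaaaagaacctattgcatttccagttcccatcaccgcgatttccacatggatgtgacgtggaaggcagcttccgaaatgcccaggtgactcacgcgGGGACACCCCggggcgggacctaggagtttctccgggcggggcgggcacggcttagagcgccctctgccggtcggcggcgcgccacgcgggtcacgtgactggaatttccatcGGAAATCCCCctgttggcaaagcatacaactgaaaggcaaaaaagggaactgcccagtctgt
Nfkbia: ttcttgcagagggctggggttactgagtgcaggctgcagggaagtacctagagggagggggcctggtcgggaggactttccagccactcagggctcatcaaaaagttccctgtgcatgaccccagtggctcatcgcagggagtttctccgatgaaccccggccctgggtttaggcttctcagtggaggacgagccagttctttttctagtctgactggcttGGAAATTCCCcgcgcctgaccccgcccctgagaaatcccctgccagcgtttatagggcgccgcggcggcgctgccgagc
Nfkbie: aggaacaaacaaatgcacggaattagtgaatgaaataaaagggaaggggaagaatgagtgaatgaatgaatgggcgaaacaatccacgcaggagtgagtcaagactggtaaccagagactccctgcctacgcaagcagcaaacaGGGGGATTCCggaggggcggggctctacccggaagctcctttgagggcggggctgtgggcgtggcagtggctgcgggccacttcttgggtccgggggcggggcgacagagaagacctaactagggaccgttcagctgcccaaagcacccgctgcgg
Rel: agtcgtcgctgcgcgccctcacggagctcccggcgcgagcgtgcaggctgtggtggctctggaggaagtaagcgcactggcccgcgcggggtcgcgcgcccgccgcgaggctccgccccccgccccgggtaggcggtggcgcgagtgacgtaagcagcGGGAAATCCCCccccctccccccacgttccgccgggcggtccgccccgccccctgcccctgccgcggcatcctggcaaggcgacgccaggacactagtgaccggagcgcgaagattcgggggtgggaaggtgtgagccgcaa
Nfkb2: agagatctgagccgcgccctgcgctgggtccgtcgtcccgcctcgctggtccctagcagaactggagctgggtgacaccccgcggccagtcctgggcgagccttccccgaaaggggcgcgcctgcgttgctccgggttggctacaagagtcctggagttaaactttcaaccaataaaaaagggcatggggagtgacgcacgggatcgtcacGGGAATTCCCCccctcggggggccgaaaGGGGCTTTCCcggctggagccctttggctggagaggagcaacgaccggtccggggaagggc

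The kappaB consensus, a degenerate 10-base pattern, was found in 7 of the 10 member windows and in 8.46% of all 32851 promoter windows of that length. A second form, GGG followed by any 2 bases and TTTCC on either strand, was called the narrow form; it fixes more bases and overlaps the consensus. It was found in 6 of the 10 member windows, each time at a consensus match, and in 1.63% of all windows. Nfkb2 supplies 3 of the 6, and its windows 2 and 3 overlap and hold 1 and the same match. Counted by gene, the narrow form was found for 4 of 7 members and for 1.89% of all 27025 symbols, and the consensus for 5 of 7 and 9.55%. Nfkbia had 1 match of the narrow form, read on the minus strand, whose first capital lay 29 bases before the start. The first Tnfaip3 window had the narrow form 12 bases before the start, and a broader match 125 bases before it that reads on both strands. The Nfkbie match, 106 bases before the start, was of the broader form. Rel and Nfkb2 held the narrow form too, so a match was not limited to the genes that rose. Rela, Birc3 and the second Tnfaip3 window had no match. These are matches of letters, not measured binding. Several members were known as targets of the factor before the search, so their shares beside those of all windows are a description and no test.

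**Figure D1:**
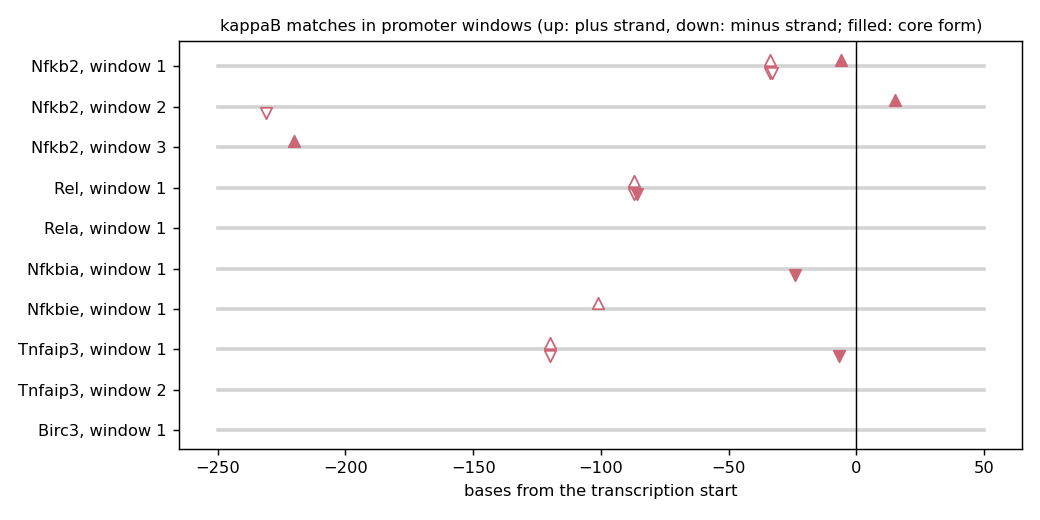
Position of kappaB consensus matches (triangles) in the 10 member promoter windows, in bases from the transcription start. Upward triangles read on the plus strand and downward ones on the minus strand of the gene, and filled triangles are the narrow form, found in 6 of the 10 windows; Nfkb2 windows 2 and 3 overlap and share 1 match.

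The arrays differed in brightness within both groups. The 75th percentile of signal was 231 to 558 in controls and 127 to 545 in KO-labelled mice (exact two-sided permutation p = 0.232). All levels are therefore given as log2 of the signal over the 75th percentile of the same array. All 14 member probes were well above background on all 16 arrays, so no member was lost to the filter on dim probes. Of the targeted genes, Adrb1 did not pass the test on its brighter probe. Its level ran from -2.58 to -2.34 in controls and from -2.99 to -2.19 in KO-labelled mice, with a difference of -0.00041 ± 0.11 (SE, limma adjusted p = 0.999). A dimmer Adrb1 probe was 0.95 ± 0.30 higher in KO-labelled mice (limma adjusted p = 0.0277). That probe was faint, with log2 means of -4.39 in controls and -3.44 in KO-labelled mice. It was well above background on 6 control and 7 KO-labelled arrays. No source used here says whether either probe lies in the deleted part. Neither checks the genotype, and the group names are those of the labels throughout. Neutrophils are the main cells of marrow. All 10 neutrophil markers were measured, and their summed level, in multiples of the 75th percentile, was 2642 to 3270 in controls and 2506 to 3811 in KO-labelled mice. No other tissue was compared, so these levels do not test the tissue label.

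The feedback inhibitors Tnfaip3, Nfkbia and Nfkbie rose, and none of the 5 subunits passed the test by its brightest probe. The 3 were higher in KO-labelled mice by 2.03, 1.03 and 0.41 on the log2 scale. Nfkbie and the subunit Rel differed by about as much, 0.41 and 0.43, and fell on either side of the threshold (limma adjusted p = 0.033 and 0.0611). The dimmer probe of the subunit Nfkb1 was 0.69 higher and passed (limma adjusted p = 0.00324). The values therefore do not part inhibitors from subunits as 2 classes. None of the 10 members was lower and 7 did not pass (limma, Benjamini-Hochberg adjusted p under 0.05 over 32689 kept probes, each member counted by its brightest probe). Across all 23061 gene names tested the same way, 22.3% passed, 10.3% higher and 12.1% lower. The median difference of the 10 members was 0.35, and 8 of the 10 differences were above 0. Over all gene names the median was -0.02, and 47.2% had a mean that was higher. The member median rests in part on Birc3, whose brightest probe over all 16 arrays is not its brightest in controls. With each member taken by its probe brightest in controls, a rule chosen after the values were seen, the median was 0.19, 7 of 10 differences were above 0, and again 3 members were higher and 0 lower. All gene names by that rule had a median of -0.02, 10.2% higher and 12.3% lower. The groups did not overlap for 2 members, Tnfaip3 and Nfkbia, against 2.87% of gene names with all KO-labelled mice above all controls and 3.27% with all below. With a member counted when any of its probes passed, 4 members were higher, Nfkb1 being the fourth; by that looser rule 14% of all gene names were higher.

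**Figure D2:**
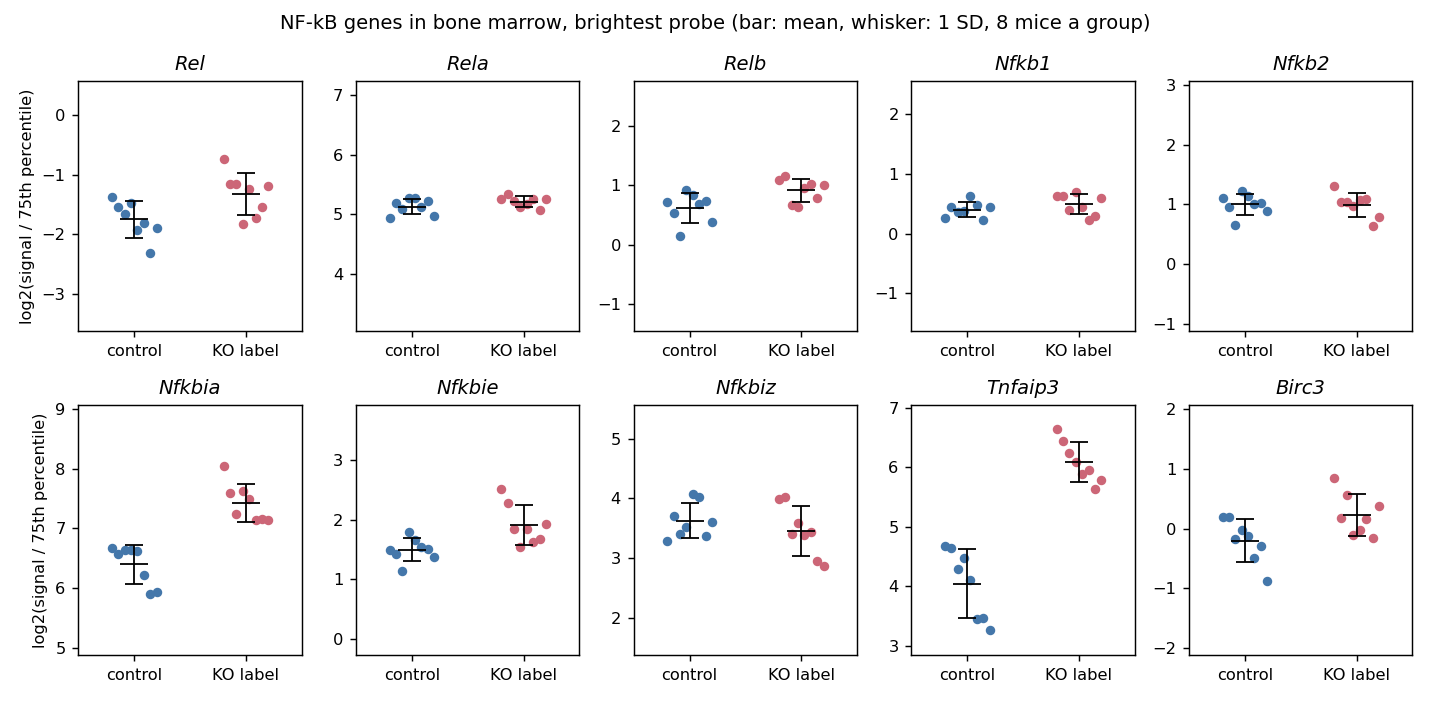
Level of the brightest probe of each of the 10 genes in each mouse, as log2 of the signal over the array's 75th percentile; every panel spans the same number of log2 units. Points are mice, bars are group means and whiskers 1 SD (n = 8 mice per group); only the Tnfaip3 and Nfkbia panels show no overlap.

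Tnfaip3 encodes A20, a ubiquitin-editing enzyme that ends signalling from TNF and Toll-like receptors. Its level in controls was 3.26 at the lowest, 4.20 at the median and 4.68 at the highest. In KO-labelled mice it was 5.63, 6.02 and 6.63. The lowest KO-labelled mouse lay above the highest control. The difference was 2.03 ± 0.22 on the log2 scale (SE, n = 8 per group, limma adjusted p = 3.22e-06), a 4.10-fold higher signal with a 95% interval of 1.57 to 2.50 in log2. The exact two-sided permutation p was 1.55e-04, the smallest that 8 against 8 mice can give. It ranked 519 by p among all kept probes. The difference was 2.09 among the mice scanned on the first day and 1.98 among those of the second. On the 5 slides that held both groups it was 1.14 to 3.00. The probe lies at chr10:18720776-18720835 on the minus strand of build mm9, as the scanner files annotate it.

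Nfkbia encodes IkB alpha, the inhibitor that holds Rela dimers in the cytoplasm and that NF-kB rapidly renews. Its level was 5.90 at the lowest, 6.60 at the median and 6.67 at the highest in controls. In KO-labelled mice it was 7.13, 7.37 and 8.05. Again every KO-labelled mouse lay above every control. The difference was 1.03 ± 0.16 (SE, n = 8 per group, limma adjusted p = 1.39e-04), a 2.04-fold higher signal with a 95% interval of 0.70 to 1.36 in log2. It was 0.95 and 1.11 on the 2 scan days and 0.56 to 1.83 within slides. Its probe, chr12:56590945-56591440 of mm9 on the minus strand, spans 496 genomic bases for 60 probe bases, so it crosses at least 1 intron.

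Nfkbie encodes IkB epsilon, a slower inhibitor of Rel and Rela dimers. Its level was 1.14 at the lowest, 1.50 at the median and 1.79 at the highest in controls, and 1.55, 1.84 and 2.52 in KO-labelled mice. The 2 groups overlapped. The difference was 0.41 ± 0.13 (SE, n = 8 per group, limma adjusted p = 0.033), or 1.33-fold. This call depended on single mice: it was lost without control 1, 2, 3 or 8, or without KO-labelled mouse 1 or 2 (limma adjusted p = 0.0514 to 0.0668). With slide as a fixed block the difference was 0.34 (limma adjusted p = 0.131), and within slides it ran from -0.09 to 0.81. The probe lies at chr17:45700000-45700059 of mm9.

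Nfkbiz encodes IkB zeta, a nuclear IkB protein that helps to turn on secondary response genes. Its level was 3.28 at the lowest, 3.56 at the median and 4.07 at the highest in controls, and 2.87, 3.42 and 4.02 in KO-labelled mice. The groups overlapped widely, and the difference was -0.17 ± 0.17 (SE, n = 8 per group, limma adjusted p = 0.539, 95% interval -0.53 to 0.20). It was 0.02 among the mice of the first scan day and -0.35 among those of the second. The probe lies at chr16:55817859-55817918 of mm9.

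**Figure D3:**
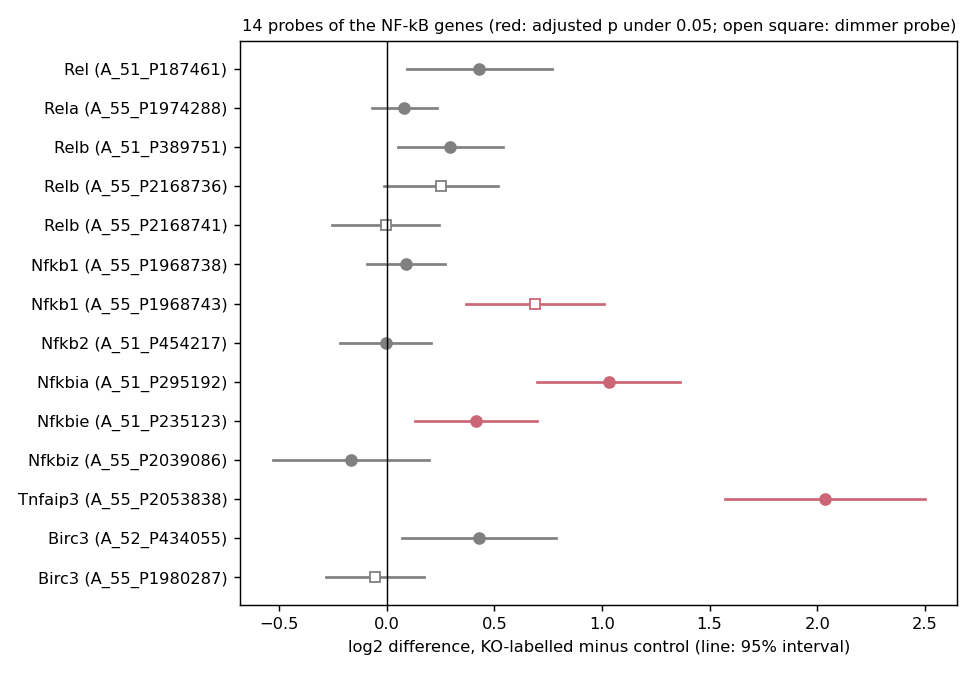
Log2 difference (KO-labelled minus control, horizontal axis) of all 14 probes with 95% intervals; circles are brightest probes, open squares dimmer probes, red marks limma adjusted p under 0.05. Tnfaip3 (2.03) and Nfkbia (1.03) lie farthest to the right, and the 2 Nfkb1 probes differ (0.09 and 0.69).

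Among the subunits with a transactivation domain, Rel, known in lymphocytes and myeloid cells, was -2.32 at the lowest, -1.74 at the median and -1.38 at the highest in controls. In KO-labelled mice it was -1.83, -1.22 and -0.74. Its difference of 0.43 ± 0.16 missed the threshold (SE, n = 8 per group, limma adjusted p = 0.0611, 95% interval 0.09 to 0.77). It passed without control 1 or without KO-labelled mouse 4 or 6 (limma adjusted p = 0.046, 0.0269 and 0.0381), and with scan day as a block (0.0496). Its probe is annotated to 15 bases only, chr11:23641729-23641743 of mm9.

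Rela encodes p65, the subunit of the main Nfkb1 dimer. Its level was 4.93 at the lowest, 5.15 at the median and 5.27 at the highest in controls, and 5.06, 5.23 and 5.34 in KO-labelled mice. The ranges nearly coincided, and the difference was 0.08 ± 0.07 (SE, n = 8 per group, limma adjusted p = 0.463, 95% interval -0.07 to 0.23). The upper end of the 95% interval, 0.23, is no firm bound on the change. The probe lies at chr19:5648070-5648129 of mm9.

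Relb pairs with the product of Nfkb2 in the non-canonical branch. Its brightest probe (chr7:20191722-20191781 of mm9) was 0.14 at the lowest, 0.70 at the median and 0.92 at the highest in controls, and 0.63, 0.97 and 1.15 in KO-labelled mice. The difference was 0.29 ± 0.12 (SE, n = 8 per group, limma adjusted p = 0.0762). It passed without control 4 or without KO-labelled mouse 4 (limma adjusted p = 0.0482 and 0.0455). A second probe starts 51 bases away and overlaps the first, so it is no independent target; it differed by 0.25 ± 0.13 (limma adjusted p = 0.162). The probe that starts 11336 bases away differed by -0.0057 ± 0.12 (limma adjusted p = 0.981).

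Nfkb2 encodes p100, the precursor of p52. Its level was 0.66 at the lowest, 1.02 at the median and 1.23 at the highest in controls, and 0.64, 1.04 and 1.30 in KO-labelled mice. The groups covered the same range: the difference was -0.0057 ± 0.10 (SE, n = 8 per group, limma adjusted p = 0.978, 95% interval -0.22 to 0.21). Its probe is annotated at chr19:46386146-46386285 of mm9.

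Nfkb1 encodes p105, the precursor of p50, and its 2 probes disagreed. The brighter probe (chr3:135247621-135247680 of mm9) was 0.23 at the lowest, 0.41 at the median and 0.63 at the highest in controls, and 0.23, 0.53 and 0.69 in KO-labelled mice. It differed by 0.09 ± 0.09 (SE, n = 8 per group, limma adjusted p = 0.497). The dimmer probe, which starts 6929 genomic bases away at chr3:135254550-135254609, was -0.75 at the lowest, -0.39 at the median and 0.03 at the highest in controls. In KO-labelled mice it was -0.0048, 0.25 and 0.82. It was 0.69 ± 0.15 higher in KO-labelled mice (SE, n = 8 per group, limma adjusted p = 0.00324). The within-array difference of the 2 probes itself differed between groups by 0.60 (exact two-sided permutation p = 0.00482, Benjamini-Hochberg adjusted p = 0.00963 over 4 probe pairs of Nfkb1, Relb and Birc3). Within scan days the dimmer probe differed by 0.75 and 0.62, and within slides by 0.43 to 0.80. The dimmer probe is printed because the Nfkb1 call rests on it; it has no stop codon in 2 of its 3 forward frames.
Nfkb1, dimmer probe: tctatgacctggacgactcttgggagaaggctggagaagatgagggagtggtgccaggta

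Birc3 encodes cIAP2, a ubiquitin ligase of the TNF receptor complex. Its probe with the higher mean over all 16 arrays (chr9:7856162-7856221 of mm9) was -0.89 at the lowest, -0.15 at the median and 0.20 at the highest in controls, and -0.17, 0.16 and 0.85 in KO-labelled mice. The difference of 0.43 ± 0.17 did not pass (SE, n = 8 per group, limma adjusted p = 0.0784, 95% interval 0.07 to 0.79). Its other probe, 1753 bases away, was the brighter one in controls, by 0.19 on average, and differed by -0.06 ± 0.11 (limma adjusted p = 0.767). The KO-labelled values therefore decided which probe stands for Birc3. As for Nfkb1, the 2 probes differed in their response, by -0.48 (exact two-sided permutation p = 0.0042, adjusted p = 0.00963 over the same 4 pairs).

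The members varied between mice of the same group. KO-labelled mouse 1 had the highest value of its group for 6 of the 10 members and lay above all controls for 8, and mouse 2 was highest for 3 and above all controls for 7. The median deviation from the control mean over the 10 members was 0.74 in mouse 1 and 0.46 in mouse 2. In the other 6 it was 0.03 to 0.40, with the lowest in mouse 4. Controls ran from -0.16 to 0.23. Mice 1 and 2 also had the lowest erythroid marker values: their list medians, relative to the control mean, were -1.52 and -1.64. The same 2 mice had the highest B cell list medians of all 16 mice, at 0.71 and 0.82, and the highest immediate early medians, at 0.73 and 0.74. Their medians of the other target genes were 0.83 and 0.59. The part of these cells and genes in the member values was not tested. Without both mice, in a fit chosen after these values were seen, Tnfaip3 differed by 1.88 and Nfkbia by 0.90 (limma adjusted p = 3.25e-05 and 5.63e-04). Nfkbie then differed by 0.25 and did not pass (limma adjusted p = 0.101).

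**Figure D4:**
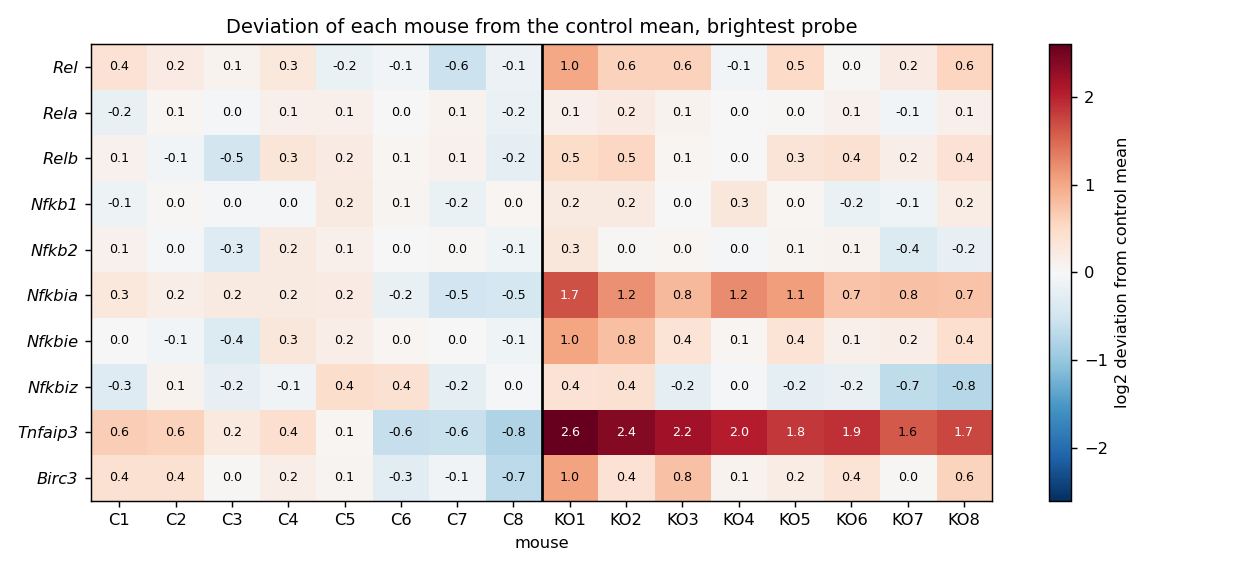
Deviation of each mouse (columns) from the control mean for each gene (rows), in log2 units of the brightest probe, with 8 controls (C) left of the line and 8 KO-labelled mice (KO) right of it. The Tnfaip3, Nfkbia, Nfkbie, Relb and Birc3 rows are above the control mean in all 8 KO-labelled mice, and mouse KO1 has the highest median deviation, 0.74.

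Among other genes of the pathway, 2 of 14 receptors and adaptors, 2 of 10 kinases, 1 of 7 non-canonical genes and 12 of 23 other target genes passed in either direction, beside 22.3% of all gene names. Of 14 receptors and adaptors, 1 rose and 1 fell. Tlr2, the receptor for bacterial lipoproteins, rose by 1.15 ± 0.17, and Ticam1, the adaptor of Tlr3 and Tlr4, fell by 0.40 ± 0.09 on the log2 scale (limma adjusted p = 1.11e-04 and 0.0032). Of 10 kinases and their binding partners, Tbk1 rose by 0.38 ± 0.12 and Tab2 fell by 0.28 ± 0.07 (limma adjusted p = 0.0237 and 0.00932), and 8 did not pass. Of 7 genes of the non-canonical branch only Map3k14, the kinase that starts it, passed; it fell by 0.43 ± 0.10 (limma adjusted p = 0.00578). The list medians were -0.10, -0.08 and -0.02, beside -0.02 over all gene names. Each list gene, here and below, was counted by its brightest kept probe, and other probes of some genes differed more. Tnfrsf13c differed by -0.36 on its brightest probe and by -1.55 on another, and Traf2 by -0.14 and -0.58. Traf6 probes ran from -0.32 to 1.06 (brightest 0.32), and Map3k7 probes from -0.06 (brightest) to 0.54. These genes lie outside the naming rule and were named after their values were seen.

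Of 12 inhibitors that act through ubiquitin or RNA decay, 2 rose, 1 fell and 9 did not pass, with a median of 0.02. The share of all gene names that passed was 22.3%, so this count and that of the other IkB proteins below lie near it. Zc3h12a, an RNase that degrades inflammatory mRNAs, rose by 0.96 ± 0.16 (limma adjusted p = 3.01e-04). Rnf11 and Itch are partners of the Tnfaip3 protein in its ubiquitin-editing complex. Rnf11 rose by 0.50 ± 0.15 and Itch fell by 0.62 ± 0.16 (limma adjusted p = 0.0235 and 0.00832). Of 4 other IkB proteins 1 passed: Nfkbid, a nuclear IkB protein, rose by 0.40 ± 0.11 (limma adjusted p = 0.015). Nfkbib, of the same list, differed by -0.16 on its brightest probe and did not pass (limma adjusted p = 0.101). Its 3 kept probes disagreed, with differences from -1.91 to 0.14. Nfkbib lies outside the naming rule and was named after its values were seen.

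Of 23 other target genes tested, 9 rose, 3 fell and 11 did not pass, with a median of 0.28. Cxcl1, a neutrophil chemokine, was above background on 2 control arrays and on all 8 KO-labelled arrays, so it passed the filter only through the group where it is high and had to differ. Its level was at least 13.4-fold higher in KO-labelled mice, with control arrays set no lower than the lowest signal above background (log2 means measured at -5.21 and -1.01, limma adjusted p = 2.35e-06). It is 1 of the 9. Cxcl2, another neutrophil chemokine, was 2.34 to 4.12 in controls and 4.68 to 5.72 in KO-labelled mice. Ccl2, the monocyte chemokine, was 2.47 to 3.50 and 3.74 to 5.04. Neither overlapped, and they rose by 1.53 ± 0.25 and 1.43 ± 0.18 (limma adjusted p = 2.36e-04 and 2.39e-05). The 3 that fell were Ccl5 (by 0.82), Vcam1 (by 0.58) and Traf1 (by 0.44). All 3 lie outside the naming rule and were named after their values were seen. Vcam1 has 2 kept probes, and the dimmer one differed by 0.24 in the other direction. Of 12 immediate early genes, which are switched on within minutes of many stimuli, 6 rose, 0 fell and 6 did not pass. Their median was 0.38, and 4 had all KO-labelled mice above all controls. Over all gene names 10.3% rose, and 2.87% had all KO-labelled mice above all controls. Ier2 rose by 1.22 ± 0.11, Atf3 by 1.44 ± 0.17 and Dusp1 by 0.81 ± 0.11 (limma adjusted p = 5.95e-07, 7.67e-06 and 4.48e-05).

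**Figure D5:**
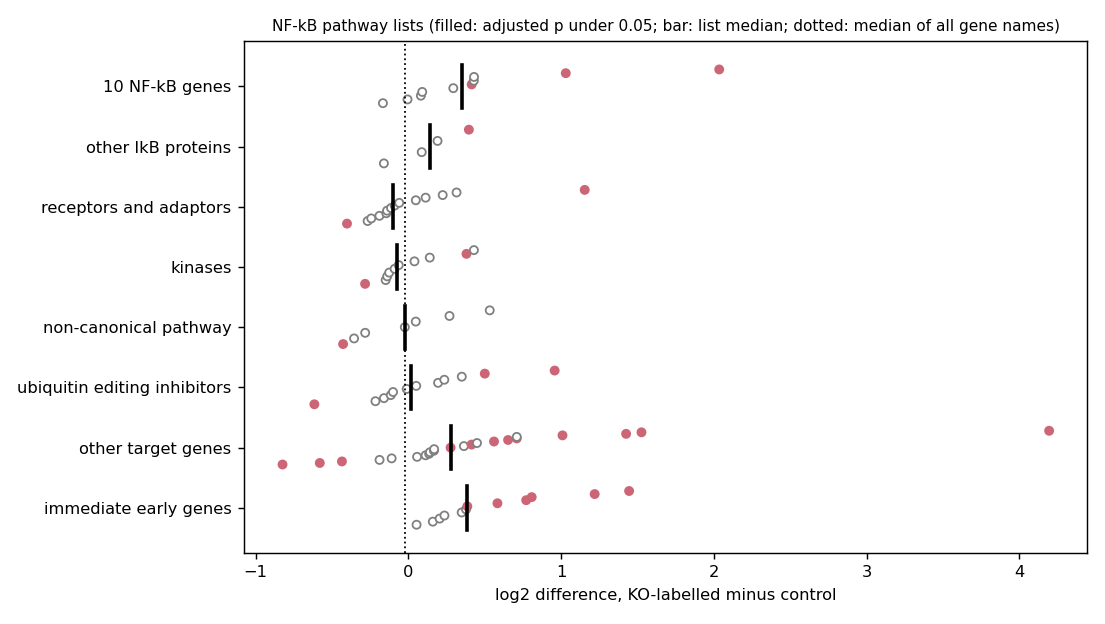
Log2 difference (KO-labelled minus control, horizontal axis) of each tested gene by list; filled points passed limma adjusted p under 0.05, bars are list medians and the dotted line is the median of all gene names (-0.02). The 10 NF-kB genes have a median of 0.35, the other target genes 0.28 and the immediate early genes 0.38.

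The genes whose profile over the 16 arrays was most like that of a member were found among 15037 gene names by the root mean square difference of centred log2 values, with no test. For Tnfaip3 they were Ccrl2 (0.25), Maff (0.31), Egr4 (0.34), Cxcl2 (0.36) and Cd3d (0.37), against a median of 1.14 over all gene names searched. Ccrl2 is a chemokine-binding receptor, Maff and Egr4 are transcription factors, and Cd3d belongs to the T cell receptor complex. For Nfkbia they were Zfand2a (0.18), Ifrd1 (0.19), Klf2 (0.21), F3 (0.21) and Ets2 (0.23), against a median of 0.66. Klf2 and Ets2 are transcription factors, and F3 is tissue factor, which starts coagulation. All 16 arrays enter this measure, so a like difference between groups counts towards likeness.

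Some marker genes of marrow cells also differed between the groups, and in whole marrow fewer cells of a type and less RNA per cell cannot be told apart. The marker counts here and in the next paragraph stand beside 10.3% of all gene names that rose and 12.1% that fell. Of 10 neutrophil markers none passed, nor did any of 10 erythroid markers, whose summed level was 148 to 445 in controls and 98.4 to 555 in KO-labelled mice. Of 9 monocyte markers 3 rose and 1 fell. Cd14, the lipopolysaccharide co-receptor, rose by 2.26 ± 0.13 and Ifi204 fell by 0.81 ± 0.15 (limma adjusted p = 2.17e-09 and 6.14e-04). The summed monocyte level was 141 to 209 in controls and 162 to 312 in KO-labelled mice. Of 8 resident macrophage markers 0 rose and 5 fell, among them Cd5l and Axl, with summed levels of 11.2 to 18.6 and 7.19 to 12.4. Vcam1, counted among the other target genes too, is 1 of the 5 and made 43.1% to 67.8% of these sums.

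Megakaryocyte markers fell in 7 of 10 (Itgb3 by 1.57 and Clec1b by 2.87), with summed levels of 41.1 to 76.2 in controls and 22.0 to 50.9 in KO-labelled mice. Pf4 alone made 60.4% to 76.4% of these sums. Gp6, 1 of the 7, was above background on 5 KO-labelled arrays and all 8 controls, so it was kept only through the controls. Of 9 stem and progenitor markers 1 rose and 5 fell (Kit by 0.90 and Meis1 by 0.63), with summed levels of 30.2 to 45.0 and 23.2 to 31.1. Ly6a made 48.8% to 58.3% of the stem and progenitor sums. Of 10 B cell markers 2 rose (Vpreb1 by 1.36 and Igll1 by 1.40) and 0 fell, with sums of 55.6 to 153 and 65.3 to 155. Of 9 T cell markers 1 rose (Cd3d by 2.18) and 4 fell, among them Thy1. Only Cd3d had a difference above 0, and the median difference of the 9 was -0.43. The T cell sums were 38.1 to 45.4 (median 39.5) in 7 controls and 42.3 to 49.8 (median 46.7) in 7 KO-labelled mice. These sums include Cd3d, whose log2 mean was 1.91 in controls and 4.09 in KO-labelled mice, so they do not show a rise of the list. Control 8, with a Cd3e spot left out as an outlier, had a sum of 81.9, of which Cd4 made 79.1%, and KO-labelled mouse 1 had no usable Cd4 spot. Of 10 NK cell markers 1 rose (Ncr1 by 1.00) and 3 fell, with sums of 28.5 to 44.1 and 26.6 to 40.5, mostly of Nkg7. Klrk1, 1 of those that fell, was above background on 2 KO-labelled arrays and all 8 controls, so it was kept only through the controls; it was at least 1.79-fold lower. Of 9 dendritic cell markers 0 rose and 4 fell, among them Clec9a and Ccr9. Their sums, 192 to 225 and 168 to 299, are almost those of Siglech alone, which made 91.2% to 95.3% of them. Of 9 stromal markers Cxcl12 rose by 0.62 and Cdh5 fell, at least 1.71-fold by the same bound, being above background on 5 KO-labelled arrays and all 8 controls, with sums of 33.5 to 59.2 and 39.1 to 55.8. Pdgfra and Xcr1 were well above background on no array. The part of these cell types in the member differences was not tested.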

How the data were processed

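Cy3-labelled total RNA was hybridised to 1-colour Agilent arrays, 1 per mouse, per the labels' protocols. The deposited scanner files hold linear intensity per spot, from which the scanner software had already taken the background (Feature Extraction 10.1.1.1 per the file headers, 10.7 per the submitters' processing notes). Titles gave each mouse's group and number. The authors' value table holds log2 values with medians near 5 and was used as an alternative only; no source used here gives its centring. Control and outlier spots were left out, log2 intensity was taken relative to the 75th percentile of that array (all but control spots), spots of a probe were averaged, and probes well above background on at least 6 of 8 arrays of either group were kept. Groups were compared with limma 3.58.1 (R 4.3.3), adjusted over all kept probes; the fit was tested on simulated data. Levels were set against each other between probes only in choosing the brightest probe, in list sums and in pairs within a gene. The members and lists were chosen with earlier results of these data known. Named genes were all members, up to 3 called genes per pathway list and 2 per marker list by smallest p, the 5 most like Tnfaip3 and Nfkbia, and the targeted genes; 1 of these is not reported here. Where a probe lies in exon or UTR was not analysed here. Arrays lay on 6 slides and were scanned on 2 days. Each sample is labelled as 1 mouse; 8 mice per group limit the precision. Alternatives covered normalization, background correction, the filter, slide, scan day, replicate number, brightness, weights, variance trend, probe choice, threshold and each mouse left out.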

Additional observations from a re-analysis of the deposited data

How the results depend on the processing

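Over the 37 alternatives run, 2 to 5 of the 10 members were higher and 0 were lower; in the main setting 0 were lower at an unadjusted p under 0.05 too. Tnfaip3 and Nfkbia were higher in every alternative, with limma adjusted p up to 0.0123 and 0.0274. The count was 5 with normexp background correction and with array weights, both adding Rel and Relb. Leaving out 1 mouse at a time gave 2 to 5, with 5 when KO-labelled mouse 4 was left out. Nfkbie lost its call under 14 of 35 alternatives, among them no filter on dim probes and array brightness as a covariate (limma adjusted p = 0.0691 and 0.0806); the cause was not tested. The dimmer Nfkb1 probe missed the threshold within each scan day alone (limma adjusted p = 0.053 and 0.134), fits that hold 4 mice per group. Probes called numbered 7696. They numbered 2449 and 3454 within the first and second scan day, 4430 at an adjusted p under 0.01, and 6604 to 7947 with 1 mouse left out. Same-numbered mice did not deviate together (correlations -0.19 to 0.19, 0 of 8 controls closest to their own number). With the replicate block 3 members were higher, Rel in place of Nfkbie (limma adjusted p = 0.0443 and 0.0693), and 7012 probes were called. No direction of a called member reversed. Without the filter on dim probes the median difference of all probes was 0.09, against -0.01 with it.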

Other observations

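Controls 6, 7 and 8 were the 3 lowest controls for Tnfaip3, Nfkbia and Birc3. Their Tnfaip3 levels were at most 3.47, while the other 5 controls began at 4.10, a gap of 0.64. For Nfkbia they were at most 6.21 and the others began at 6.58. The same 3 mice had the lowest medians of the immediate early list, at -0.13, -0.21 and -0.36 from the control mean, and of the other target genes, at -0.07, -0.17 and -0.33. They lay on slides 2, 4 and 3. The scan was on the second day for controls 6 and 8 and on the first for control 7. Over both groups of the 14 probes, the largest gap of an end mouse to its nearest neighbour, as a share of the group's range, was 0.51. It was KO-labelled mouse 2 on the Relb probe farthest from the others, at 0.39 with the next mouse at -0.15.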
